A study of Mus musculus with 8 samples.

Results

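The distal convoluted tubule is a short segment of the nephron behind the macula densa, and the 10 genes described here encode its sodium chloride cotransporter, the kinases upstream of that cotransporter, and proteins that carry calcium and magnesium in this segment and the connecting tubule behind it. The genes were taken by name, and 15 probes matched them, out of 41174 non-control probes on the array, by transcript accession; the same match named 18217 genes. A single probe read 8 of the genes, whereas Slc8a1 had 4 probes and Wnk1 had 3.

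Kidney RNA of 4 NEKO mice and 4 littermate controls, all 8 weeks old and on a mixed 129Sv/J and C57BL/6J background, was hybridised to 1-colour arrays, with 1 array per mouse. NEKO mice (numbers 2 and 3, female, and 5 and 6, male) were Keap1–/–::Nrf2Flox/Flox::K5-Cre. The controls were 1 K1 female (number 1, Keap1+/–::Nrf2Flox/Flox) and 3 K1Cre mice (number 8, female, and 4 and 7, male), which also carried K5-Cre. All 8 mice thus carried the floxed Nrf2 alleles and every control had lost 1 Keap1 allele, so no mouse was wild type. The Keratin5 promoter drives Cre in squamous epithelium, so the deletion of Nrf2 was aimed at that epithelium and not at the tubules. K5-Cre was present in all NEKO mice and in 3 of 4 controls. Females were on slide 2 and males on slide 1, and these cannot be told apart. On both slides the controls were at positions 1 and 2 and the NEKO mice at positions 3 and 4, so position on the slide and genotype cannot be told apart either.

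The share of probes well above background was 61.8 to 65.7% in controls and 61.9 to 64.7% in NEKO mice, and no probe was saturated. Keap1, the deleted gene, was at 1.84 ± 0.07 (SD, n = 4) in controls and 0.20 ± 0.17 (SD, n = 4) in NEKO mice, a change of -1.63 (SE 0.10, limma adjusted p = 0.00458). These and all following levels are log2 signals set against the 75th percentile of each array, and changes are NEKO minus control on the log2 scale. Levels of different probes are not set against each other, because probes bind with different strength. Summed levels of a list, given below, add unlogged signals over its probes, so the brightest probes weigh most in them.

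The sodium chloride cotransporter, NCC, takes up sodium and chloride from the urine and is the target of thiazide diuretics. It is switched on by phosphorylation: WNK kinases activate SPAK, which phosphorylates the cotransporter. The same segment takes up magnesium through the channel TRPM6, and its late part and the connecting tubule take up calcium through the channel TRPV5, carry it across the cell on calcium-binding proteins and release it to the blood by sodium-calcium exchange. An array measures transcript levels only, and phosphorylation is outside its reach. In whole kidney RNA, fewer cells of a segment and less RNA per cell cannot be told apart.

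The promoters of 3 genes are shown because Slc12a3 encodes NCC itself, Slc8a1 was the gene whose levels did not overlap between the groups, and Trpv5 was the other gene with a TATA box. Each stretch is the 250 bases before the RefSeq start site on GRCm38.p6, with the letters TATAAA in capitals where present.
Slc12a3, chr8:94328958-94329207, plus strand: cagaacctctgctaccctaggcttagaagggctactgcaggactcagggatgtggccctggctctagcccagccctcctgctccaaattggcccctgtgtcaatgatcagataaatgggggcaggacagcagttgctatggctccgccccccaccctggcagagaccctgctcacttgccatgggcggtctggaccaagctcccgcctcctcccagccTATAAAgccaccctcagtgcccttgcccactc
Slc8a1, chr17:81738388-81738637, minus strand: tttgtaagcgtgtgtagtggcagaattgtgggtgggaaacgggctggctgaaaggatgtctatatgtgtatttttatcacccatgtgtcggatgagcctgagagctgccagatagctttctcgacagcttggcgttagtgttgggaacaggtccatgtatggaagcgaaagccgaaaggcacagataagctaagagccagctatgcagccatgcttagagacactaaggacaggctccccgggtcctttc
Trpv5, chr6:41680724-41680973, minus strand: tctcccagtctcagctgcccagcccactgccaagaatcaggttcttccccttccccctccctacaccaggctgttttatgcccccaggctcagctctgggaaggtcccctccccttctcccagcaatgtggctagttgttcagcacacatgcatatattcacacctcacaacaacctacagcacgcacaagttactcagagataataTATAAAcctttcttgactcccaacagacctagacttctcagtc

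RefSeq windows of 300 bases, with 250 before and 50 after the start, were given for 9 of the 10 genes, 10 windows in all since Pvalb had a pair of starts. The letters TATAAA, searched on both strands, were in 2 of these 10 windows and in 13.6% of all 32851 windows. They began 32 bases before the start of Slc12a3 and 43 bases before that of Trpv5. TGACNNNGC, the core of the antioxidant response element bound by Nrf2, was in 0 of the 10 windows on either strand and in 12.4% of all windows. TGTTCT, a motif of the mineralocorticoid and glucocorticoid receptors, was in 1 of the 10, a Pvalb window, and in 19.0% of all. Such matches describe letters within these windows and say nothing about binding.

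No gene of the 10 passed limma at an adjusted p of 0.05, a threshold that 0.225% of the 19594 genes and unnamed transcripts tested did pass. At an unadjusted p of 0.05, 6 of the 10 were lower in NEKO mice (Slc12a3, Pvalb, Trpm6, Slc8a1, Wnk4 and Stk39), beside 10.6% of all tested, and 0 were higher, beside 7.37%. Groups were separate, with every NEKO mouse below every control, for 1 gene, Slc8a1, beside 5.36% of all, and 0 genes were separate in the higher direction, beside 3.89%. The change was below 0 for 9 of the 10, and their median was -0.36, compared with -0.03 and 56.2% below 0 for all tested. The 6 genes became 3 when the sex term was left out (Pvalb, Slc8a1 and Stk39), and also 3 without NEKO 2 or without NEKO 5 (Trpm6, Slc8a1 and Stk39). Without NEKO 2 or without control 4, Stk39 was separate as well, and without NEKO 3, Pvalb was. Leaving out a mouse can only add separate genes, and the share of all tested was not taken in these settings.

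**Figure D1:**
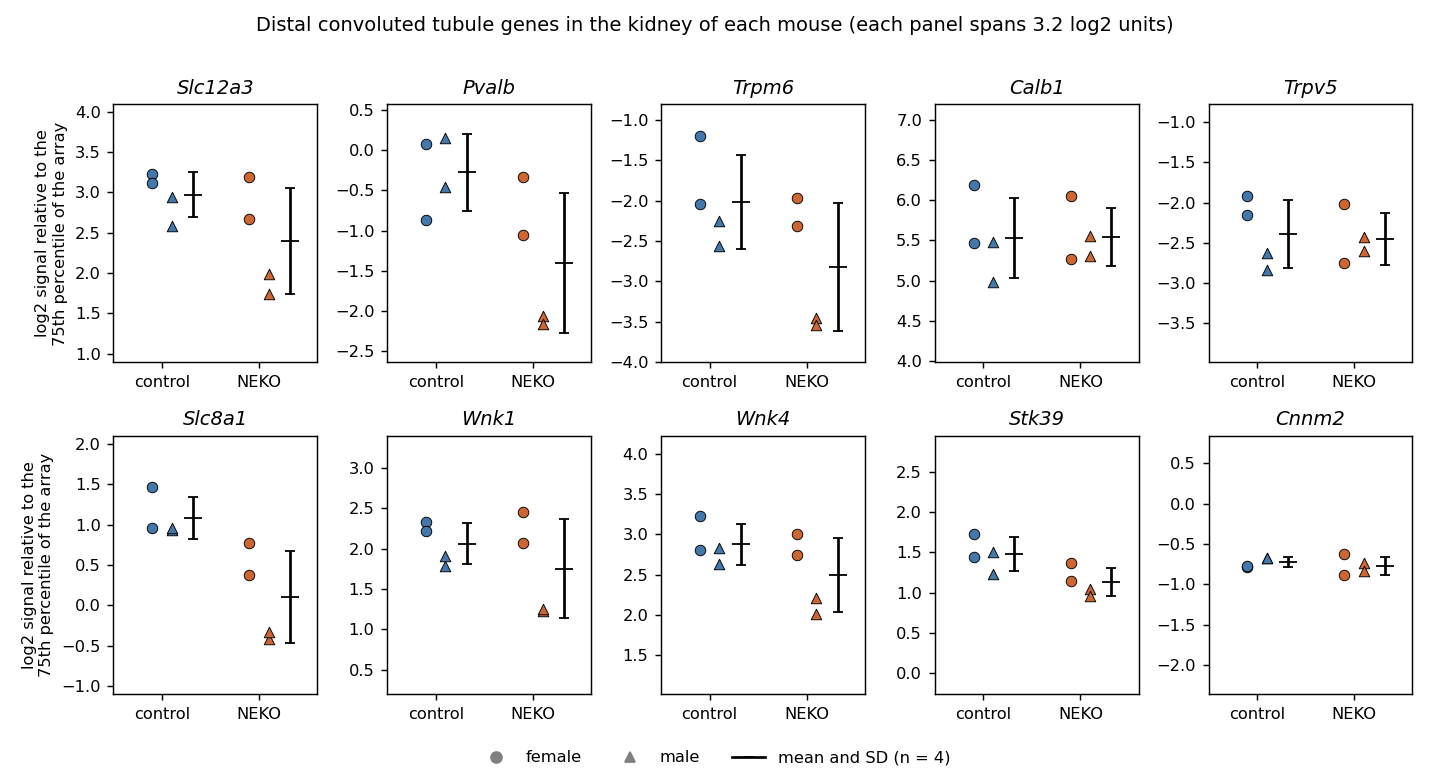
Signal of the 10 genes in each mouse, as log2 with the 75th percentile of its array at 0 (vertical axis), in controls and NEKO mice (horizontal axis), with circles for females, triangles for males and a bar for the mean and SD of 4 mice. For Slc8a1 all 4 NEKO mice were below all 4 controls, for Calb1 the NEKO mice lay within the range of the controls, and for Slc12a3, Pvalb, Trpm6, Slc8a1, Wnk1, Wnk4 and Stk39 the NEKO males were the lowest points.

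Slc12a3, which encodes NCC, was at 3.23, 2.59, 2.94 and 3.11 in controls 1, 4, 7 and 8 and at 2.67, 3.19, 1.74 and 1.98 in NEKO 2, 3, 5 and 6. The NEKO males were the lowest of the 8 mice, while the NEKO females lay within the range of the controls, 1 of them near its top. The change was -0.57 (SE 0.19, 95% interval -1.02 to -0.13), or 0.672 of the control level, and did not pass (limma adjusted p = 0.202). An exact two-sided permutation of the mice, which does not take sex into account, gave p = 0.229. The paper immunostained kidneys for NCC and reports its expression as not affected in NEKO mice. That stain reads protein and the array reads transcript. The main text of the paper gives no age or measured values for this stain, and the arrays are of mice 8 weeks old.

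Wnk4, a kinase that acts on SPAK in this segment and carries mutations in familial hyperkalaemic hypertension, was at 3.23, 2.63, 2.83 and 2.81 in the controls and at 2.74, 3.01, 2.21 and 2.01 in the NEKO mice. Again the NEKO males were lowest and the females overlapped the controls. Its change was -0.38 (SE 0.15, 95% interval -0.74 to -0.02, limma adjusted p = 0.259).

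Wnk1 gives rise both to a full-length kinase and, in the distal convoluted tubule, to a shorter kidney form without the kinase domain. Its brightest probe read 2.32, 1.78, 1.91 and 2.22 in controls and 2.07, 2.46, 1.23 and 1.25 in NEKO mice, a change of -0.31 (SE 0.15, 95% interval -0.67 to 0.05, limma adjusted p = 0.329). The next probe read 1.17, 0.76, 0.93 and 0.91 in controls and 0.67, 0.48, 0.31 and 0.09 in NEKO mice, so that here every NEKO mouse was below every control. The change at that probe was -0.56 (SE 0.11, exact permutation p = 0.0286, the smallest that 4 against 4 allows, and limma adjusted p = 0.0892 over 26027 single probes, of which 0.227% passed). The dimmest probe changed by 0.07 (95% interval -0.22 to 0.35). The 3 probes were listed under the same accession and thus gave different answers, and the files used here give no position within the transcript, so which form each reads is not known.

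Stk39, which encodes SPAK, was at 1.73, 1.23, 1.50 and 1.45 in controls and at 1.37, 1.15, 1.05 and 0.96 in NEKO mice. A single NEKO mouse, female 2, lay above the lowest control. The change was -0.35 (SE 0.11, 95% interval -0.60 to -0.10, limma adjusted p = 0.179, exact permutation p = 0.0571), or 0.785 of the control level. It was the gene for which females and males differed least, at -0.33 and -0.37.

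Trpm6, the magnesium channel of the apical membrane, was at -1.20, -2.56, -2.25 and -2.04 in controls and at -2.31, -1.97, -3.45 and -3.54 in NEKO mice. The NEKO males lay below every other mouse, and the females were among the controls. The change was -0.81 (SE 0.22, 95% interval -1.32 to -0.29, limma adjusted p = 0.155), or 0.572 of the control level. With normexp background correction it was -0.51 (limma adjusted p = 0.144). Control 1, the mouse without K5-Cre, was the highest, and the change was -0.69 without it.

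Cnnm2, a protein of the basolateral membrane that takes part in magnesium transport, stayed between -0.79 and -0.67 in controls and between -0.89 and -0.63 in NEKO mice. The change was -0.05, with a 95% interval from -0.24 to 0.15 (limma adjusted p = 0.784). This was the narrowest interval of the 10 genes. The intervals of Trpm6 and Cnnm2 did not overlap, and the difference between these magnesium genes was not tested.

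Pvalb encodes parvalbumin, a calcium-binding protein that in the kidney marks the early distal convoluted tubule. It was at -0.87, -0.46, 0.14 and 0.07 in controls and at -1.06, -0.34, -2.06 and -2.16 in NEKO mice. The NEKO males were the lowest, and NEKO female 3 was above 2 of the controls. The change, -1.12 (SE 0.40, 95% interval -2.08 to -0.17), was the most negative of the 10 genes and also the least precise, and it did not pass (limma adjusted p = 0.219; exact permutation p = 0.0857). Skeletal muscle also makes parvalbumin. Of 6 skeletal muscle markers, Ckm, Tnnt3, Myh4 and Mb were not well above background on any array, and the 2 tested, Acta1 and Mylpf, changed by 0.24 and -0.01. The summed level of this list ran from 0.277 to 0.385 times the 75th percentile in controls and from 0.319 to 0.390 in NEKO mice.

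Slc8a1 encodes NCX1, the sodium-calcium exchanger of the basolateral membrane, which is also abundant in cardiac and smooth muscle. Its brightest probe read 1.47, 0.93, 0.96 and 0.96 in controls and 0.37, 0.78, -0.42 and -0.33 in NEKO mice. Every NEKO mouse was below every control, with a gap of 0.15 between the groups. The change was -0.98 (SE 0.19, 95% interval -1.42 to -0.54), or 0.507 of the control level, with a limma adjusted p of 0.0834. The exact permutation p was 0.0286, the smallest possible with 4 against 4. With a separate effect for each sex and their average tested, its limma adjusted p was 0.0315, and over all alternatives it ran from 0.0315 to 0.414. A dimmer probe of the gene, at -1.55, -2.01, -2.09 and -2.24 in controls and -2.75, -2.91, -3.50 and -3.20 in NEKO mice, had separate groups as well and changed by -1.11 (SE 0.17, limma adjusted p = 0.0611 over single probes). A probe at the limit of detection, well above background on 6 of 8 arrays, changed by -0.79, and the remaining probe by -0.29 (95% interval -0.91 to 0.32). With all 4 probes averaged, the groups overlapped.

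Calb1, calbindin-D28k, buffers and carries calcium in the late distal convoluted and connecting tubule. It was at 6.19, 4.98, 5.49 and 5.46 in controls and at 5.26, 6.05, 5.30 and 5.56 in NEKO mice. The change was 0.01 (SE 0.25), with a 95% interval from -0.57 to 0.59 that leaves room for changes of either sign (limma adjusted p = 0.982). Its probe was printed 10 times on each array, and the SD among these spots was 0.045 to 0.079, compared with 0.50 among control mice and 0.36 among NEKO mice. The spots of an array share 1 RNA and 1 hybridisation, so their SD covers spot noise only.

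Trpv5, the apical calcium channel, was at -1.92, -2.84, -2.62 and -2.16 in controls and at -2.76, -2.02, -2.43 and -2.60 in NEKO mice. The NEKO mice lay within the range of the controls. The change was -0.07 (SE 0.20, 95% interval -0.53 to 0.40, limma adjusted p = 0.879). Its sign, like that of Calb1, turned when single mice were left out.

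**Figure D2:**
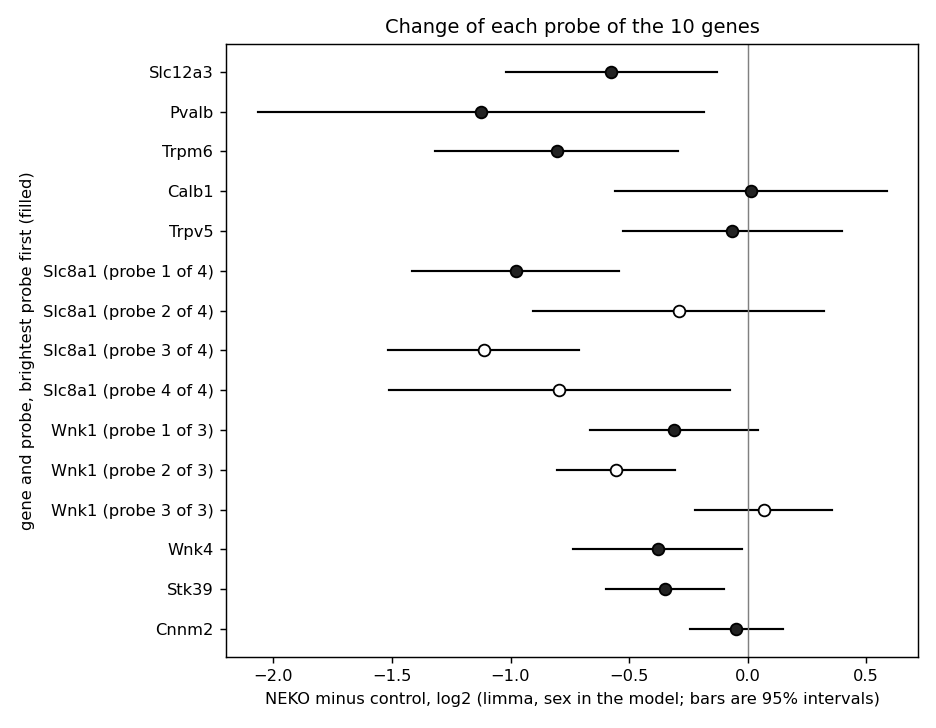
Change of each of the 15 probes of the 10 genes, NEKO minus control in log2 (horizontal axis), from limma with sex in the model, with bars for the 95% interval and filled points for the probe from which a gene was read. Of the 15 probes 13 lay below 0; the probes of Slc8a1 ran from -1.11 to -0.29 and those of Wnk1 from -0.56 to 0.07.

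The samples allowed the genotypes to be compared within each sex. Between males, the change was -0.91 for Slc12a3, -1.95 for Pvalb, -1.09 for Trpm6, -1.32 for Slc8a1, -0.61 for Wnk1 and -0.62 for Wnk4. Between females, the corresponding values were -0.24, -0.30, -0.52, -0.64, -0.01 and -0.14. Both NEKO males were below both control males for 8 of the 10 genes (all except Calb1 and Trpv5), compared with 28.4% of all genes and transcripts. Both NEKO females were below both control females for 2 of the 10 (Slc8a1 and Stk39), compared with 25.1%. The value in males was below that in females for 8 of the 10, compared with 49.7%. The exceptions were Calb1 and Trpv5, with 0.20 and 0.22 in males and -0.17 and -0.35 in females.

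The difference between the sexes was itself tested as an interaction in limma. For 0 of the 10 genes did it pass at an adjusted p of 0.05, as it did for 0.0153% of all, and for 2 of the 10 the unadjusted p was under 0.05, beside 10.5% of all. These were Pvalb, with -1.65 for the male minus the female effect (SE 0.55, limma adjusted p = 0.348), and Wnk1, with -0.61 (SE 0.21, adjusted p = 0.375). For Slc12a3 the difference was -0.67 (95% interval -1.40 to 0.07). An effect in males only was thus not shown, and with 2 mice of each sex and genotype the intervals were wide. Among controls, male minus female was -0.41 for Slc12a3, -0.79 for Trpm6, -0.59 for Calb1 and -0.69 for Trpv5, and it was above 0 for Pvalb, at 0.24, and Cnnm2, at 0.10.

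**Figure D3:**
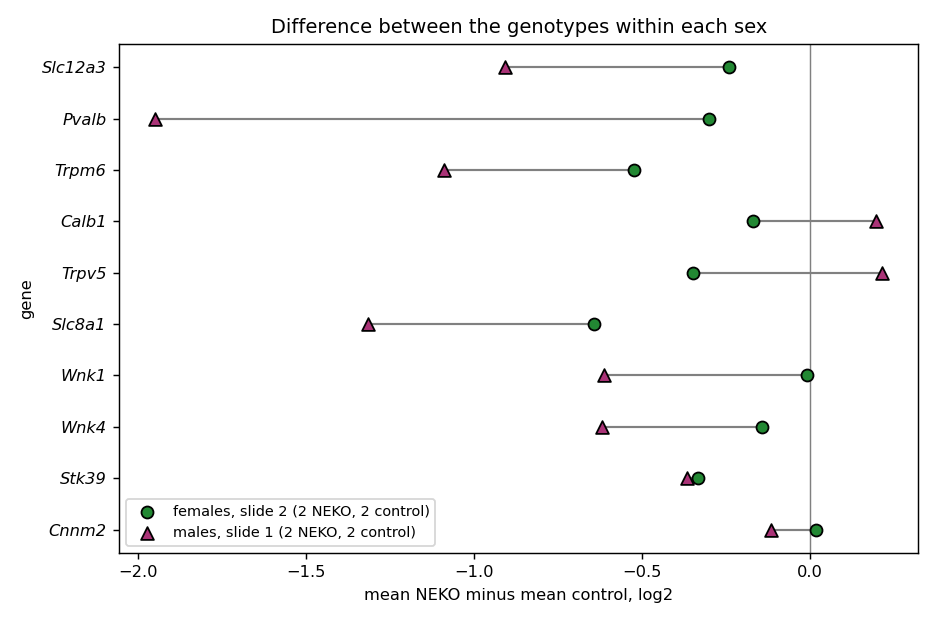
Mean of 2 NEKO mice minus mean of 2 controls, in log2 (horizontal axis), for each of the 10 genes, with circles for females on slide 2 and triangles for males on slide 1. The triangle lies to the left of the circle for 8 genes and to the right for Calb1 and Trpv5, and the points nearly coincide for Stk39, at -0.33 and -0.37.

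Markers of other cell types were read in the same arrays, and 0 of them passed limma at an adjusted p of 0.05. At an unadjusted p of 0.05, 7.37% of all genes and transcripts tested were higher and 10.6% lower. Groups were separate in the higher direction for 3.89% of all and in the lower direction for 5.36%. The 5 urothelial markers had a median change of 2.52 in males and 0.06 in females. Of these 5, 3 were higher and 0 lower at an unadjusted p of 0.05. Upk1a had the opposite sign, at -0.71 (SE 0.32, limma adjusted p = 0.293), with every NEKO mouse below every control, and Krt5, at 1.85, had every NEKO mouse above every control. Their summed level, as multiples of the 75th percentile, was 1.13 to 2.83 in controls and 2.31 to 5.78 in NEKO mice. The 5 fibroblast and smooth muscle markers had a median of 0.77 in males and -0.52 in females. Their summed level was 23.3 to 50.2 in controls and 17.5 to 42.1 in NEKO mice. Tagln, at 4.28 in controls, weighed most in this sum and was the 1 marker of the 5 with a change below 0, at -0.68. For 4 fat markers the median was 1.83 in males and 0.93 in females, and the summed level 0.407 to 8.79 in controls and 1.71 to 12.6 in NEKO mice. At an unadjusted p of 0.05, 0 of these 5 and 0 of these 4 were higher or lower. The 4 macrophage markers tested had a median of 0.59 in males and -0.08 in females. Their summed level was 3.36 to 4.32 in controls and 2.97 to 5.34 in NEKO mice. Of the 4, 1, Lyz2, was higher at an unadjusted p of 0.05, at 2.67 in males and 0.08 in females. Lyz2, at -3.71 in controls, weighed little in this sum beside Csf1r, at 0.81. The 4 lymphocyte markers tested had a median of 1.15 in males and -0.25 in females, with a summed level of 0.142 to 0.194 in controls and 0.132 to 0.322 in NEKO mice, and 0 were higher or lower at an unadjusted p of 0.05. Each marker tested was well above background on 7 or 8 arrays, and Cd79a was so on none. The summed levels of all 5 lists overlapped between the groups when both sexes were pooled, and they were not compared within males. Between males, the urothelial markers changed by 2.52 for Upk1b, 3.24 for Upk2, 2.12 for Upk3a and 2.66 for Krt5, but by -0.20 for Upk1a. Upk3a was at 1.23 and 1.29 in NEKO males and at -1.34 and -0.39 in control males. The part of the cells of these lists in the male values of the distal tubule genes was not tested.

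Other markers of the same segment were set beside the 10 genes. Of Egf, Sall3, Emx1 and Tmem52b, 1 was lower at an unadjusted p of 0.05, beside 10.6% of all tested. The 4 had a median change of -0.20, with -0.04 in females and -0.36 in males. Egf, the precursor of the growth factor that stimulates TRPM6, changed by -0.96 (SE 0.33, limma adjusted p = 0.208). It was between 5.96 and 6.33 in controls, and at 6.15 and 6.00 in NEKO females but 4.53 and 3.97 in NEKO males. Sall3 and Emx1, transcription factors with expression in this segment, changed by 0.04 and -0.12. Along the nephron, the median was 0.05 for 6 proximal tubule markers and -0.24 for 4 of the thick ascending limb. It was -0.20 for 5 of the connecting tubule and principal cell other than Calb1 and Trpv5, and -0.90 for 5 of the intercalated cell. In females and males, the medians were -0.02 and -0.46 for the thick ascending limb and -0.67 and -1.12 for the intercalated cell. They were 0.10 and 0.003 for the proximal tubule and -0.21 and -0.17 for the connecting tubule and principal cell. These medians cover single genes that were lower at an unadjusted p of 0.05: Slc5a2 of the proximal tubule (-0.43), Kcnj1 of the thick ascending limb (-0.55) and Scnn1b of the principal cell (-0.76). Slc22a6 of the proximal tubule was higher (0.34), beside 7.37% of all tested. Groups were separate, lower in NEKO mice, for 1 proximal tubule and 2 intercalated cell markers, beside 5.36% of all. Of the intercalated cell markers 3 were lower at an unadjusted p of 0.05, beside 10.6% of all tested, and 0 passed. Foxi1 changed by -0.09, and Slc4a1 in NEKO 5, at 2.34, was above every control. The summed level of the list was 35.6 to 47.8 in controls and 6.24 to 23.3 in NEKO mice. Slc26a4, which weighed most in this sum in controls, changed by -2.07. The lists were not tested against each other.

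The further genes of NCC regulation formed a list of 19, among them the ubiquitin ligase, kinase and receptor genes of the pathway and the basolateral channels and pump that set its driving force. Of the 16 tested 0 passed, 2 were lower and 0 higher at an unadjusted p of 0.05, beside 10.6 and 7.37% of all tested, and the median change was -0.08. Hsd11b2, the enzyme that inactivates corticosterone and so keeps it from the mineralocorticoid receptor, was at 0.38, -0.18, -0.17 and 0.01 in controls and at -0.44, 0.06, -1.58 and -1.68 in NEKO mice, a change of -0.92 (SE 0.24, limma adjusted p = 0.150). Kcnj10, a potassium channel of the basolateral membrane, changed by -0.43 (SE 0.17, adjusted p = 0.260), with the NEKO males at 1.30 and 1.24 and all other mice at 1.95 or more. Nr3c2, the mineralocorticoid receptor, changed by -0.29 (SE 0.18, limma adjusted p = 0.438). It was dim, at -4.24 in controls and -4.53 in NEKO mice, and each of its 3 probes was well above background on at most 7 arrays. The most positive values, for Atp1b1, Nedd4l and Bsnd, were 0.15, 0.09 and 0.08.

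The list of calcium and magnesium genes held 24, of which 23 were tested (Atp2b4 had no named probe). Again 0 passed, 3 were lower (Egf, S100g and Kl) and 1 higher (Trpv6) at an unadjusted p of 0.05, beside 10.6 and 7.37% of all tested, and the median change was -0.08. Groups were separate for 2 genes, both lower in NEKO mice, beside 5.36% of all tested. S100g, calbindin-D9k, was at 6.97, 6.49, 6.71 and 6.63 in controls and at 6.28, 6.31, 5.19 and 5.94 in NEKO mice, a change of -0.77 (SE 0.20, limma adjusted p = 0.142). Kl, klotho, a co-receptor for FGF23 that is made by the distal convoluted tubule, changed by -0.48 (SE 0.11, adjusted p = 0.112) and was alike in both sexes, at -0.45 in females and -0.52 in males.

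Trpv6, the epithelial calcium channel most closely related to TRPV5, gave the most positive value of the list at 0.74 (SE 0.29, limma adjusted p = 0.250). It was between -2.82 and -1.97 in controls, at -2.33 and -2.10 in NEKO females and at -1.36 and -1.35 in NEKO males. The magnesium transporter gene Slc41a3 changed by -0.73, the potassium channel gene Kcna1 by 0.51 and Cyp24a1, the enzyme that breaks down active vitamin D, by 0.40, with limma adjusted p of 0.312, 0.409 and 0.784. Among the genes of calcium handling, then, both calbindins differed in value, at 0.01 for Calb1 and -0.77 for S100g, and so did both channels, at -0.07 for Trpv5 and 0.74 for Trpv6; these differences between genes were not tested.

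**Figure D4:**
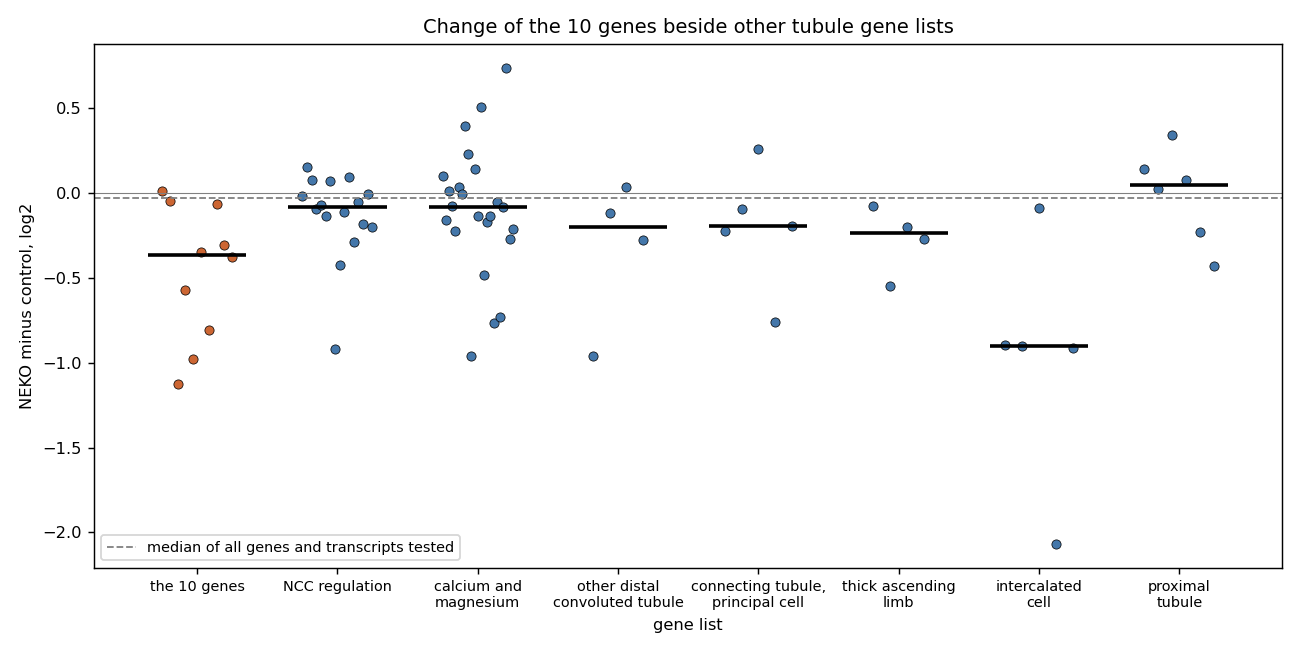
Change of each tested gene, NEKO minus control in log2 (vertical axis), for the 10 genes and for the lists of NCC regulation, calcium and magnesium, and segment markers (horizontal axis), with a thick line for the median of a list and a dashed line for that of all genes and transcripts tested, at -0.03. The median was -0.36 for the 10 genes, -0.08 for both pathway lists and -0.90 for the intercalated cell markers.

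The genes were also compared by their pattern over the 8 arrays, as the root mean square difference after each gene had been centred on its own mean. Among 12698 named genes well above background on every array, the nearest to Slc12a3 were Cytip (0.125), Sostdc1 (0.127), Defb1 (0.131), Atp6v1b1 (0.131) and Abhd6 (0.138), all in log2 units. Sostdc1, a secreted antagonist of BMP and Wnt signals, Defb1, an epithelial defensin, and Atp6v1b1, a subunit of the proton pump of intercalated cells, are known from distal parts of the nephron. No segment is given here for Cytip, the nearest of all, or for Abhd6. Within the 10 genes, the nearest to Slc12a3 was Wnk1 at 0.159. Wnk1 and Wnk4 differed by 0.151 from each other, and Calb1 and Trpv5, which share the connecting tubule, by 0.190. Trpm6 was nearest to Slc8a1 at 0.274. Pvalb was nearest to Slc12a3 at 0.474, with a spread of 0.826 around its own mean, the widest of the 10. For Stk39 the nearest was Wnk4 at 0.224, beside a spread of its own of 0.241. For Cnnm2 the distance to its nearest member, Stk39, was 0.260 and exceeded its own spread around its mean, 0.083. Among all named genes well above background on every array, many lay nearer than the nearest member. That member ranked 12 for Slc12a3 and Calb1, 25 for Wnk1, 28 for Trpm6, 38 for Trpv5 and 47 for Slc8a1. It ranked 53 for Wnk4, 73 for Pvalb, 2082 for Stk39 and 8553 for Cnnm2. The 8 arrays share the sexes, slides and genotypes, so that these distances describe patterns and carry no test.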

How the data were processed

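Kidney RNA of 8 mice was measured on 8 Agilent arrays. The authors deposited Feature Extraction (version 10.7.3.1) output, in which the processed signal is an intensity per spot after background subtraction, and a matrix of log2 values. That matrix, as the authors deposited it, held processed signals divided by the 75th percentile of their array and then centred per probe: 100% of its values were within 0.01 of recomputed ones, and its column medians ran from -0.04 to 0.08. The test used for the arrays is not given in the sources used here; the methods' t-test is unpaired with unequal variances.

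Outlier spots (73 to 172 of 43379 per array) were left out and spots of a probe averaged. Values are log2 processed signal minus the 75th percentile of non-control probes. A probe was kept if 4 or more of the 8 arrays detected it well above background and 6 or more gave a value, and the brightest kept probe stood for its gene. Names came from RefSeq (GRCm38.p6) by unversioned accession: 26690 of 41174 probes matched, and 13571 named genes and 6023 unnamed transcripts were tested. limma 3.58.1 under R 4.3.3 (lmFit, eBayes) was fitted with genotype and sex, with Benjamini-Hochberg adjustment over all 19594, and was tested on simulated data. The interaction was fitted in a second model. The genes, lists and tests were chosen with earlier results of these data known. Named beyond the 10 genes are, from both pathway lists, genes with separate groups and the 3 largest changes in each direction, the 5 genes nearest to Slc12a3, and markers set beside a result. The number of arrays limits the precision. Marker lists of adrenal gland and neurons were also read: the 1 gene of each that was tested changed by -0.15 and 0.09. Alternatives were normexp background correction (offset 50, on the median signal), other scalings, filters, probe rules, covariates, variance models, the methods' t-test, the deposited matrix and leaving out each mouse.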

Additional observations from a re-analysis of the deposited data

Results flagged for a closer look

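For Slc8a1, control 1 stood apart from the other controls. It was at 1.47, while controls 4, 7 and 8 were between 0.93 and 0.96, and its gap to the nearest of them was 0.943 of the range of the group. This mouse, a K1 female, was the only control without K5-Cre. Without it the Slc8a1 change was -0.94, compared with -0.98 with all mice. Control 1 was the highest control, so leaving it out could not make the groups overlap. In all, 20 groups of 4 mice (10 genes in 2 groups) were looked at in this way and 1 held such a mouse. The limit is one that about 1 in 20 independent groups pass by chance, and these groups share their mice and hold both sexes. A cause was not tested.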

How the results depend on the processing

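No paired analysis was possible because the replicate numbers run over both groups and none is shared. Of 220 values of the 10 genes under other processing, 210 kept their direction and their side of the threshold, 3 passed newly and 7 changed sign. Many of these values could not change sign. Each group held the sexes equally, so other covariates, a trend with robust variances or the methods' t-test left each change as it was. Of those that passed newly, Slc8a1 and Stk39 by the methods' t-test did so at an unadjusted p. With the effect averaged over the sexes, 515 genes passed in place of 44, among them 1 of the 10 (Slc8a1), 1 of the NCC list (Hsd11b2) and 1 of the calcium and magnesium list (Egf). The methods' t-test passed 1 gene with adjustment and 2212 without, then with 2 of the 10 (Slc8a1 and Stk39) and 1 of the calcium and magnesium list (Kl). The total was 182 with normexp, 20 with detection on all 8 arrays, 93 with a trend and robust variances, 98 with array weights, and 17 to 41 with a mouse left out (19 without control 4, 21 without NEKO 5, 18 without NEKO 6, 17 without control 7 and 23 without control 8). The 6 genes lower at an unadjusted p of 0.05 were 3 with no sex term or the slide as a random block, 2 by the methods' t-test with or without adjustment, and 3 to 7 with a mouse left out (3 without NEKO 2 or NEKO 5). The 1 gene with separate groups became 0 with the mean of the kept probes and 1 to 2 with a mouse left out (2 without NEKO 2, NEKO 3 or control 4). Leaving out a mouse can only raise this count. Calb1 changed sign to -0.11 with array weights, and ran from -0.12 to 0.21 with a mouse left out; Trpv5 ran from -0.17 to 0.14. Trpm6 was -0.51 with normexp. The causes were not tested. Signal over background limits the fourth Slc8a1 probe, which was well above background on 2 of 4 NEKO arrays.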
